A study of Homo sapiens with 12 samples.

Results

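PRDM14, USP44, UTF1, POLR3G, L1TD1, SALL4, LIN28A, LIN28B, TERT and PODXL are 10 genes that accompany the undifferentiated state of embryonal carcinoma cells without belonging to its core transcription factors. They were followed by taking every array probe set annotated to one of these names, which gave 11 probe sets of 32321, or 10 genes of the 18404 that could be named. LIN28A had a pair of probe sets and every other gene had 1. The values came from 12 Affymetrix Human Gene 1.0 ST arrays, a single-colour platform with probes along the whole transcript, in 4 groups of 3 biological replicates. The groups were 2102Ep cells with a control siRNA (Silencer Select Negative Control #1), 2102Ep cells with an siRNA against SOX2 (siSOX2), NTera-2 cells with the same control and NTera-2 cells with siSOX2. Both lines are human embryonal carcinoma, the malignant counterpart of early embryonic stem cells. 2102Ep, at passages 35 to 50, is called nullipotent because it hardly differentiates, and NTera-2, at passages 40 to 50, is pluripotent. Cells were seeded 24 hours ahead, transfected for 6 hours and grown on for 72 hours. 2102Ep received Lipofectamine 2000 and NTera-2 Lipofectamine RNAiMAX, with unequal amounts of siRNA, so that line, reagent and siRNA amount cannot be told apart. The same single siRNA against SOX2 served both lines with no rescue, so loss of SOX2 and any other effect of that siRNA cannot be told apart either.

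Pluripotent cells keep themselves undifferentiated through a circuit of SOX2, OCT4 and NANOG, which bind their own genes and many others together. Around that circuit stand chromatin regulators (PRDM14, UTF1, SALL4, USP44), RNA-binding proteins (LIN28A, LIN28B, L1TD1), a variant subunit of RNA polymerase III (POLR3G), the catalytic subunit of telomerase (TERT) and a surface sialomucin (PODXL). Several of them serve as markers of human embryonal carcinoma in pathology, LIN28A, SALL4 and PODXL among them. The question here was which of the 10 fell with SOX2 and which held.

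RefSeq promoter sequences, searched without the chromosome that carries PRDM14, matched 4 of the 10 genes. Whether PRDM14 has such a sequence was therefore not looked up. Sequences are shown for UTF1 and L1TD1, which fell after siSOX2, and for LIN28B, which did not pass the test. Each run is the 250 bases before an annotated start, written 5′ to 3′ along the strand of the gene in assembly GRCh38.p14. Capitals mark every match of 4 short motifs read on both strands. These were the SOX core (ACAAT or ATTGT), a longer SOX or TCF motif (ACAAAG or CTTTGT), the octamer of OCT4 (ATGCAAAT or ATTTGCAT) and the GC box (GGGCGG or CCGCCC). UTF1 lies on the plus strand at chr10:133229967-133230216, L1TD1 on the plus strand at chr1:62194599-62194848, and LIN28B has a distal start, plus strand, at chr6:104940715-104940964 and a proximal one, plus strand, at chr6:104956857-104957106.
UTF1: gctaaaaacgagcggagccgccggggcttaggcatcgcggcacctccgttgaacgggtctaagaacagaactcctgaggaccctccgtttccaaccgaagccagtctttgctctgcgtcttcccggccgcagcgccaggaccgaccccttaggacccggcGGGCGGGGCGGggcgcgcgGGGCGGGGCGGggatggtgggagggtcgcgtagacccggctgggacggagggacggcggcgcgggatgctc
L1TD1: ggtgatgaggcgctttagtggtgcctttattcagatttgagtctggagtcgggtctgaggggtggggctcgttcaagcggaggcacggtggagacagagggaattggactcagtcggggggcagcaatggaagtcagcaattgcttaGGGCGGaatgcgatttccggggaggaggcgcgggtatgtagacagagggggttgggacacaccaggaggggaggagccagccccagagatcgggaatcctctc
LIN28B distal start: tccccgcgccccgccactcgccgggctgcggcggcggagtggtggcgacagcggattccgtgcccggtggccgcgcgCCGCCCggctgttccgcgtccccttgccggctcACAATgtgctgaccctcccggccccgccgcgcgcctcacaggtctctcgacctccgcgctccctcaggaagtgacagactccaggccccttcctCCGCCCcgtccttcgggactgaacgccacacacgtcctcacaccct
LIN28B proximal start: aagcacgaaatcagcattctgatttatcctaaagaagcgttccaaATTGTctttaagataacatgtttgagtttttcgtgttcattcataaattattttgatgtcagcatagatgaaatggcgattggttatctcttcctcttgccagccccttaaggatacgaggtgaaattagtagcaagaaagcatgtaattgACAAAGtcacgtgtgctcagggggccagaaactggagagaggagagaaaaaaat
UTF1 held 4 GC boxes, 90, 85, 71 and 66 bases before its start, in adjoining pairs that share a base, and no SOX motif. L1TD1 held 1 GC box and no SOX motif. LIN28B held 1 SOX core 140 bases before the distal start, 1 SOX core 205 bases before the proximal start and 1 SOX or TCF motif 54 bases before the proximal start. The window of TERT, which also did not pass the test and is not printed, held 2 GC boxes and no SOX motif. None of these 5 windows held the octamer. Among 35116 RefSeq promoter windows of this length, 24.6% held the SOX core, 13.7% the SOX or TCF motif, 1.63% the octamer and 42.6% the GC box. A match describes letters only, and binding by a factor was not measured. Sequence outside these windows was not searched, so a missing motif here says nothing about sites elsewhere around a gene.

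The arrays were alike in depth of signal, with medians of 7.43 to 7.58 on the log2 scale and correlations of 0.9825 to 0.9943 within a group. SOX2 RNA was reduced far more in 2102Ep, to 11.4% of control signal (95% interval 9.59 to 13.5%), than in NTera-2, to 64.0% (53.9 to 75.9%). Its log2 signal ran from 8.80 to 9.30 against 12.20 to 12.28 in 2102Ep, and from 11.86 to 11.95 against 12.51 to 12.63 in NTera-2. By quantitative PCR, scaled to GAPDH, the paper found less SOX2 mRNA left in each line than these arrays show. There too, much less was left in 2102Ep than in NTera-2. The arrays measure RNA only, and by Western blot the paper detected no SOX2 protein after siSOX2 in either line. Embryonal carcinoma markers were high in both lines at the start, for example GDF3 (13.18 and 12.72 in control 2102Ep and NTera-2) and DNMT3B (11.92 and 11.72). ZFP42 went against that label in NTera-2, where its mean was 5.66 against 9.80 in 2102Ep.

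Of the 10 genes, 5 fell in 2102Ep at an adjusted p of 0.05 or less (limma, Benjamini-Hochberg over all genes), and 4 fell in NTera-2. PRDM14, USP44, POLR3G and L1TD1 fell in both lines, and UTF1 fell in 2102Ep. SALL4, LIN28A, LIN28B, TERT and PODXL passed in neither. No member rose in either line. Across all genes 5.9% fell and 6.76% rose in 2102Ep, 1.98% fell and 2.96% rose in NTera-2, and 0.994% fell in both. A fall of at least 2-fold was reached by 3 of the 10 in 2102Ep (PRDM14, USP44 and UTF1), against 0.826% of all genes, and by PRDM14 alone in NTera-2, against 0.348%. The siSOX2 arrays lay wholly below the control arrays for 5 of the 10 in 2102Ep, as they did for 12.6% of all genes, and for the same 5 in NTera-2, against 7.06%. The median log2 change of the 10 was -0.274 in 2102Ep and -0.261 in NTera-2, beside -0.0104 and 0.0425 over all genes. The smallest p that exact two-sided permutation of 3 arrays against 3 allows is 0.1, so these calls rest on the spread limma pools across genes. RNA was taken from whole cultures, in which fewer cells expressing a gene and less RNA per cell cannot be told apart.

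**Figure D1:**
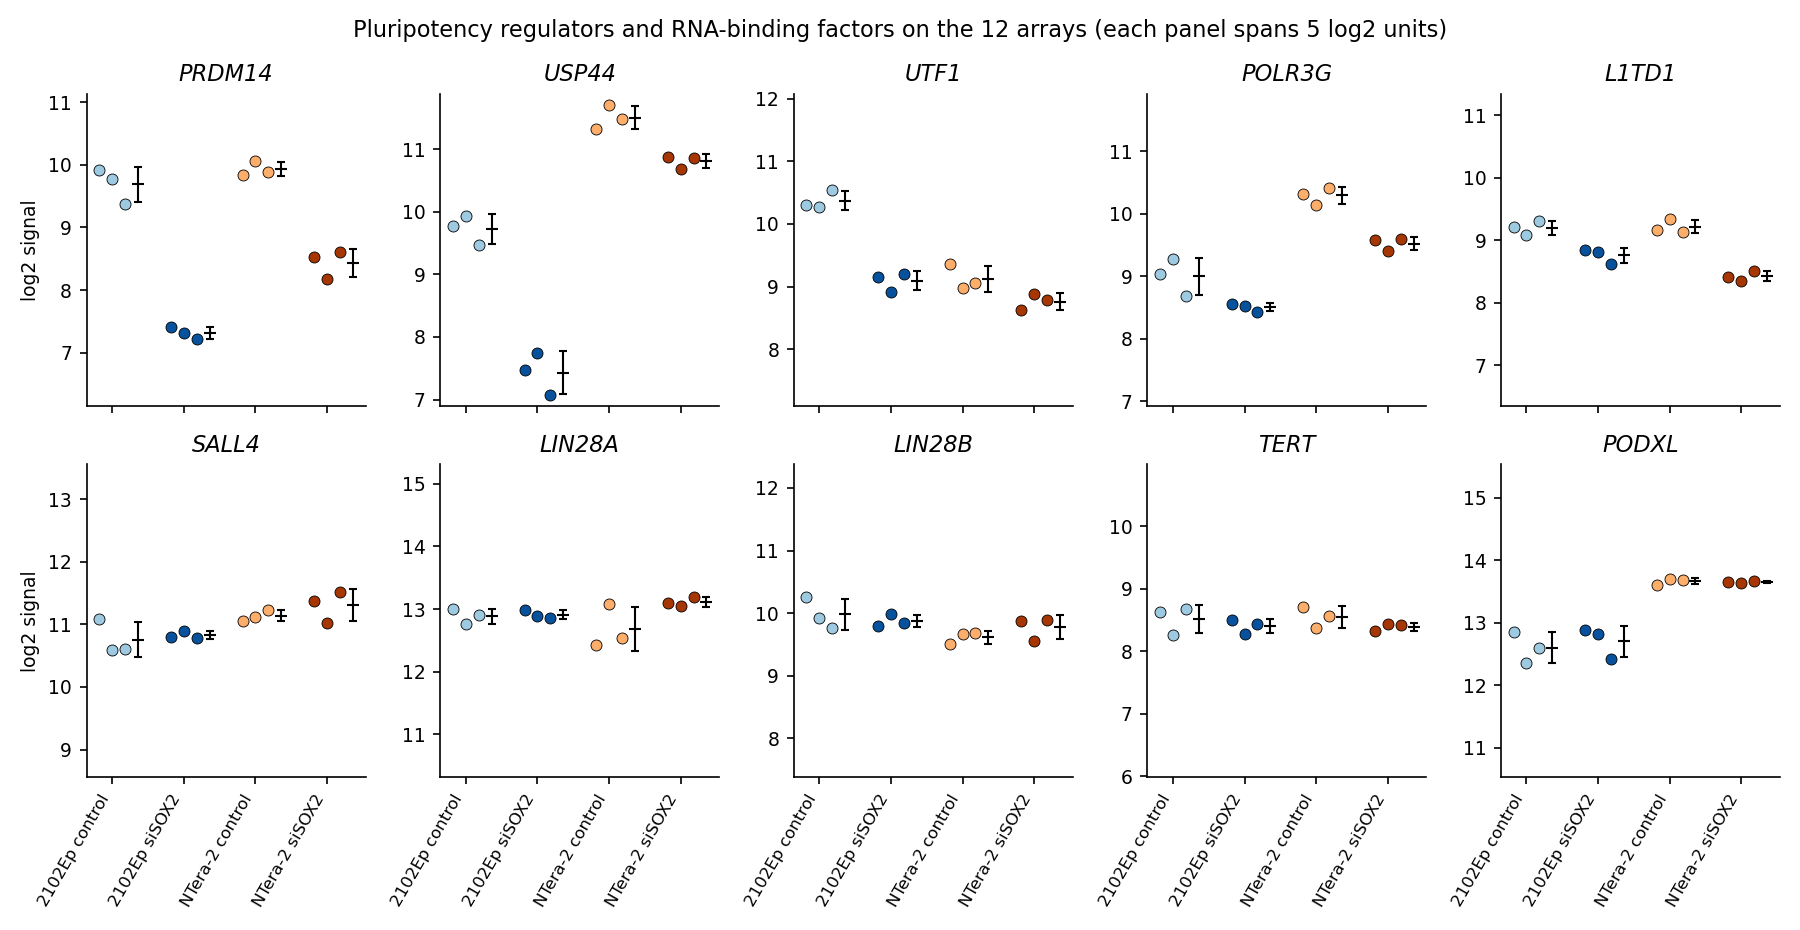
Log2 signal (vertical axis, each panel spanning 5 log2 units) of the 10 genes on each of the 12 arrays (points), in 2102Ep control (light blue), 2102Ep siSOX2 (dark blue), NTera-2 control (light orange) and NTera-2 siSOX2 (brown), and black bars for the mean ± SD of each group (n = 3). In the upper row the siSOX2 arrays lie below the controls in both lines, while in the lower row the control and siSOX2 arrays of each line overlap.

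PRDM14 fell by at least 2-fold in both lines, alone among the 10. It encodes a zinc finger protein of the PR domain family that binds enhancers of pluripotency genes and recruits Polycomb repressors. In 2102Ep its log2 signal was 9.92, 9.77 and 9.38 in control arrays and 7.41, 7.31 and 7.22 after siSOX2. In NTera-2 it was 9.84, 10.06 and 9.89, and then 8.52, 8.18 and 8.60. Every siSOX2 array lay below every control array of both lines, and the lowest values of all were those of 2102Ep siSOX2. The change was -2.38 ± 0.14 in 2102Ep (log2, SE; adjusted p = 2.24e-09, limma) and -1.50 ± 0.14 in NTera-2 (adjusted p = 2.81e-06, limma). These changes left 19.2% of the control signal in 2102Ep (95% interval 15.6 to 23.6%) and 35.4% in NTera-2 (28.8 to 43.4%). The lines began at levels that did not differ beyond the test (NTera-2 minus 2102Ep 0.24 ± 0.14, adjusted p = 0.185, limma), and after siSOX2 NTera-2 was higher by 1.12 (adjusted p = 5.29e-06, limma).

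USP44, a deubiquitinase known for acting on histone H2B and on the spindle checkpoint, had the widest span of the 10. In 2102Ep it stood at 9.77, 9.94 and 9.47 in control arrays and at 7.48, 7.74 and 7.08 after siSOX2. In NTera-2 it stood at 11.32, 11.70 and 11.49, and at 10.88, 10.69 and 10.86. Every NTera-2 array, treated or not, was therefore above every 2102Ep array. The fall was -2.30 ± 0.157 in 2102Ep (adjusted p = 1.35e-08, limma), leaving 20.4%, and -0.69 ± 0.157 in NTera-2 (adjusted p = 0.0132, limma), leaving 61.8%. Its fall in 2102Ep and that of PRDM14 were nearly equal, and their order turned when single arrays were left out, with -2.27 for both without control replicate 1 and with -2.45 for USP44 against -2.38 without siSOX2 replicate 2. In NTera-2 the pass was lost without control replicate 2 (adjusted p = 0.0749, limma) and without siSOX2 replicate 2 (adjusted p = 0.0557, limma). The gap between the lines grew from 1.78, a 3.42-fold higher signal in control NTera-2, to 3.38 after siSOX2, which is 10.4-fold.

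UTF1, a chromatin-associated factor known as a direct target of OCT4 and SOX2 and shown above with its GC-rich promoter, ran in the opposite order between lines. Its log2 signal in 2102Ep was 10.30, 10.27 and 10.55 in control arrays and 9.16, 8.92 and 9.20 after siSOX2. In NTera-2 it was 9.36, 8.97 and 9.05, and 8.62, 8.88 and 8.78. The 2102Ep control arrays stood alone at the top, and the siSOX2 arrays of 2102Ep overlapped the control arrays of NTera-2. UTF1 fell by 1.28 in 2102Ep (SE 0.127, adjusted p = 1.51e-06, limma), to 41.2% of control. In NTera-2 the change of -0.37 ± 0.127 did not pass (adjusted p = 0.132, limma), although its 3 siSOX2 arrays lay below its 3 controls and its 95% interval ran from -0.64 to -0.10. The starting signal in NTera-2 was 42.1% of that in 2102Ep.

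**Figure D2:**
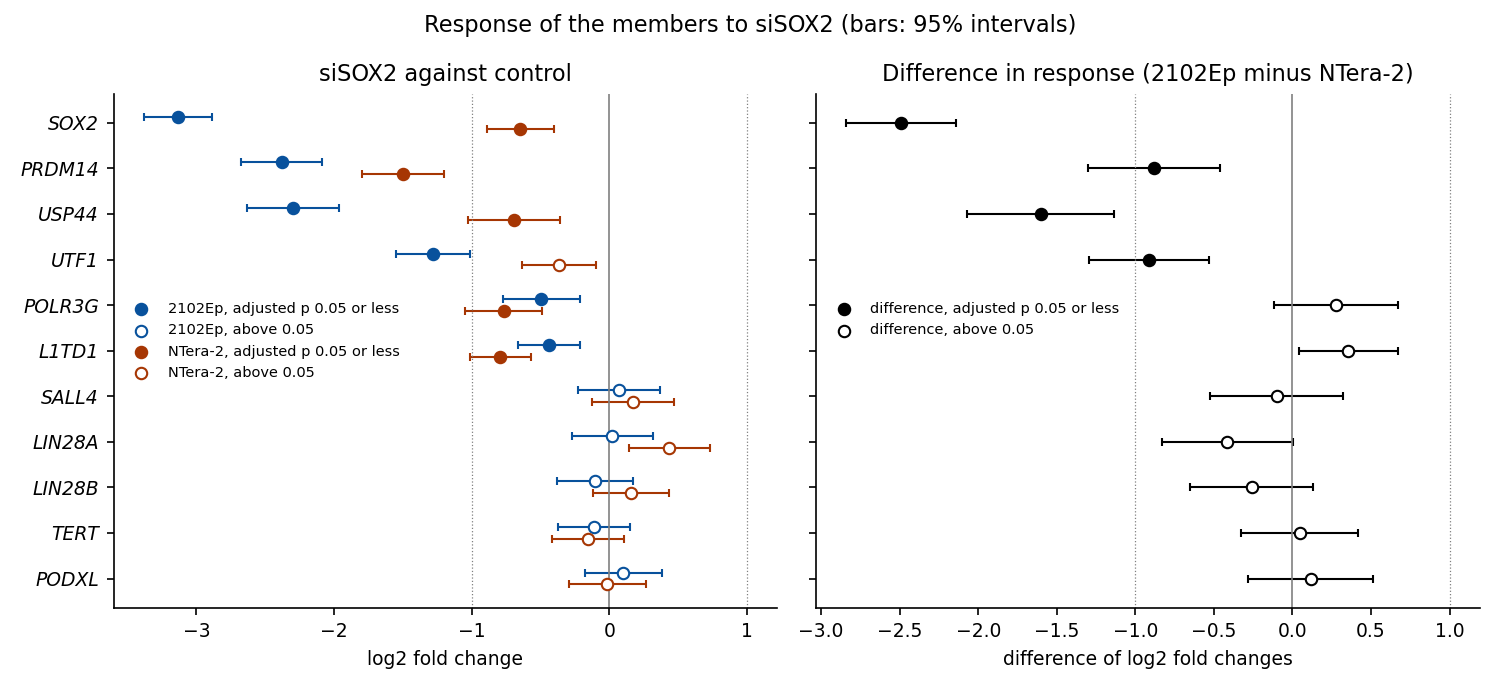
Log2 fold change after siSOX2 (left, horizontal axis) of SOX2 and the 10 genes in 2102Ep (blue) and NTera-2 (brown), and the difference of these changes, 2102Ep minus NTera-2 (right), with 95% intervals as bars and dotted lines at 2-fold. Filled points passed an adjusted p of 0.05 or less, which PRDM14, USP44 and UTF1 did in the right panel with differences of -0.88, -1.60 and -0.91.

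POLR3G encodes the subunit of RNA polymerase III that stem cells use where most adult cells use its paralogue POLR3GL. It read 9.03, 9.28 and 8.68 in 2102Ep control arrays and 8.55, 8.53 and 8.43 after siSOX2. In NTera-2 it read 10.32, 10.14 and 10.41, and then 9.58, 9.40 and 9.59. The separation in 2102Ep was narrow, since control replicate 3 lay just above the treated arrays, and in NTera-2 it was wide. The change was -0.49 ± 0.132 in 2102Ep (adjusted p = 0.0179, limma) and -0.77 ± 0.132 in NTera-2 (adjusted p = 0.00149, limma). The pass in 2102Ep was lost when only the 2 groups compared were fitted (adjusted p = 0.054, limma), without control replicate 1 (0.0529), control replicate 2 (0.0854) or siSOX2 replicate 3 (0.0778). POLR3GL stood at 0.26 (adjusted p = 0.363, limma) and 0.20 (adjusted p = 0.668, limma).

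L1TD1 is an RNA-binding protein descended from the first open reading frame of the LINE-1 retrotransposon, and is known to associate with LIN28A. It read 9.21, 9.08 and 9.30 in 2102Ep controls and 8.84, 8.82 and 8.62 after siSOX2. In NTera-2 it read 9.17, 9.34 and 9.14, and 8.41, 8.35 and 8.51. The control arrays of the lines were intermingled, and the treated NTera-2 arrays were the lowest. L1TD1 changed by -0.44 ± 0.106 in 2102Ep (adjusted p = 0.00876, limma), which left 73.8%, and by -0.79 ± 0.106 in NTera-2 (adjusted p = 0.000131, limma), which left 57.7%. Without 2102Ep siSOX2 replicate 3 the first of these was -0.37 and did not pass (adjusted p = 0.0618, limma). Of the 4 genes that fell in both lines, L1TD1 and POLR3G had the larger fall by value in NTera-2, but the difference between lines passed for neither (0.35 ± 0.149, adjusted p = 0.249, and 0.27 ± 0.187, adjusted p = 0.602, limma).

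The other 5 genes did not pass in 2102Ep. SALL4, a zinc finger protein that recruits the NuRD deacetylase complex, read 11.08, 10.59 and 10.61 there in control arrays and 10.80, 10.90 and 10.79 after siSOX2. The RNA-binding proteins LIN28A and LIN28B, which block the maturation of let-7 microRNAs, read 12.76 to 13 and 9.76 to 10.25 in controls, and 12.85 to 12.99 and 9.80 to 9.99 after siSOX2. TERT ran from 8.26 to 8.67 and from 8.28 to 8.50, and PODXL, a CD34-family mucin whose glycans carry surface epitopes used to recognise stem cells, from 12.36 to 12.85 and from 12.42 to 12.88. For each of the 5 the control and siSOX2 arrays overlapped. Their log2 changes lay between -0.11 ± 0.124 for TERT and 0.10 ± 0.133 for PODXL. The 95% intervals, not adjusted for several genes, covered 76.8% (LIN28B) to 130% (PODXL) of the control signal. A 2-fold fall in signal lay outside each of them. They bound the array signal, which compresses dim and very bright genes, and not the RNA itself.

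In NTera-2 the same 5 genes did not pass either. SALL4 read 11.06, 11.12 and 11.23 in controls and 11.38, 11.02 and 11.52 after siSOX2. LIN28B read 9.50 to 9.68 and 9.55 to 9.89, TERT 8.37 to 8.71 and 8.32 to 8.44, and PODXL 13.61 to 13.70 and 13.63 to 13.67. The groups overlapped for all 4, and their log2 changes lay between -0.15 ± 0.124 (TERT) and 0.17 ± 0.141 (SALL4), with intervals from 74.9% (TERT) to 138% (SALL4) of control. The deposited values carry no detection call, so whether TERT stood above background is not known, and a fall of a dim gene would be understated.

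LIN28A was higher by value after siSOX2 in NTera-2, and did not pass. Its log2 signal was 12.42, 13.08 and 12.54 in control arrays and 13.09, 13.05 and 13.20 after siSOX2. Control replicate 2 lay among the treated arrays, and the other two controls lay below them all. The change was 0.44 ± 0.14 (adjusted p = 0.0962, limma), with a 95% interval of 0.14 to 0.73. Without that control array it was 0.64 and passed (adjusted p = 0.00377, limma). The dimmer probe set of LIN28A had the same shape, with 10.29, 10.84 and 10.39 in controls and 10.97, 10.82 and 10.94 after siSOX2, and in 2102Ep it ran from 10.50 to 10.77 and from 10.50 to 10.58. RefSeq names 3 pseudogenes after LIN28A, 7 after SALL4, 2 after POLR3G and 1 after L1TD1, and signal from such copies cannot be told apart here.

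Whether the lines responded unequally was tested directly as the difference of their changes, 2102Ep minus NTera-2. It passed for 3 of the 10 genes, all with a larger fall in 2102Ep, while 2.67% of all genes passed in that direction. USP44 differed by -1.60 ± 0.223 (adjusted p = 0.000197, limma), UTF1 by -0.91 ± 0.18 (adjusted p = 0.00479, limma) and PRDM14 by -0.88 ± 0.198 (adjusted p = 0.0118, limma). Only USP44 exceeded 2-fold, as did 0.668% of all genes in that direction, and PRDM14 and UTF1 did so when single arrays were left out (PRDM14 -1.04 without 2102Ep control replicate 3 and -1.01 without NTera-2 siSOX2 replicate 2, UTF1 -1.03 without NTera-2 control replicate 1). SOX2 RNA itself differed by -2.49 ± 0.165 in the same direction. The differences of the other 7 genes lay between -0.41 (LIN28A, adjusted p = 0.343, limma) and 0.35 (L1TD1), and their intervals reached from -0.83 (LIN28A) to 0.67 (L1TD1). Without NTera-2 control replicate 2 that of LIN28A was -0.61 and passed (adjusted p = 0.0329, limma).

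The lines differed in several of these genes before any knock-down. In control cells 6 of the 10 passed, against 42.4% of all genes, and 4 by at least 2-fold, against 7.76%. USP44 (1.78), POLR3G (1.29 ± 0.132, adjusted p = 5.5e-07, limma), PODXL (1.06 ± 0.133, adjusted p = 5.29e-06) and SALL4 (0.38, adjusted p = 0.0399) were higher in NTera-2. UTF1 (-1.25, adjusted p = 5.46e-07, limma) and LIN28B (-0.36, adjusted p = 0.0342) were lower there. The passes of SALL4 and LIN28B were lost under 7 and 5 of 19 other settings. SALL4 was 0.29 without 2102Ep control replicate 2 (adjusted p = 0.133, limma), and LIN28B was -0.22 without 2102Ep control replicate 1 (adjusted p = 0.181, limma). Without NTera-2 control replicate 2 LIN28A was -0.41 and passed (adjusted p = 0.0114, limma). L1TD1 (0.02) and TERT (0.03) were nearest to equal, with intervals of -0.20 to 0.24 and -0.23 to 0.29. After siSOX2, 7 of the 10 passed, against 41.6% of all genes, and 3 by at least 2-fold, against 7.65%. PRDM14 and L1TD1 (-0.33, adjusted p = 0.0169, limma) passed after siSOX2 and not before, while LIN28B (-0.10, adjusted p = 0.572, limma) passed before and not after. The passes of UTF1 (adjusted p = 0.0441, limma), L1TD1 and SALL4 after siSOX2 were lost under 6, 3 and 1 of 19 other settings. The change in that gap is the difference in response given above, which passed for PRDM14 and not for L1TD1 or LIN28B (adjusted p = 0.629, limma). PODXL was higher in NTera-2 both times, by 1.06 before and 0.95 after. These comparisons share their arrays with the knock-down contrasts and are not independent of them.

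**Figure D3:**
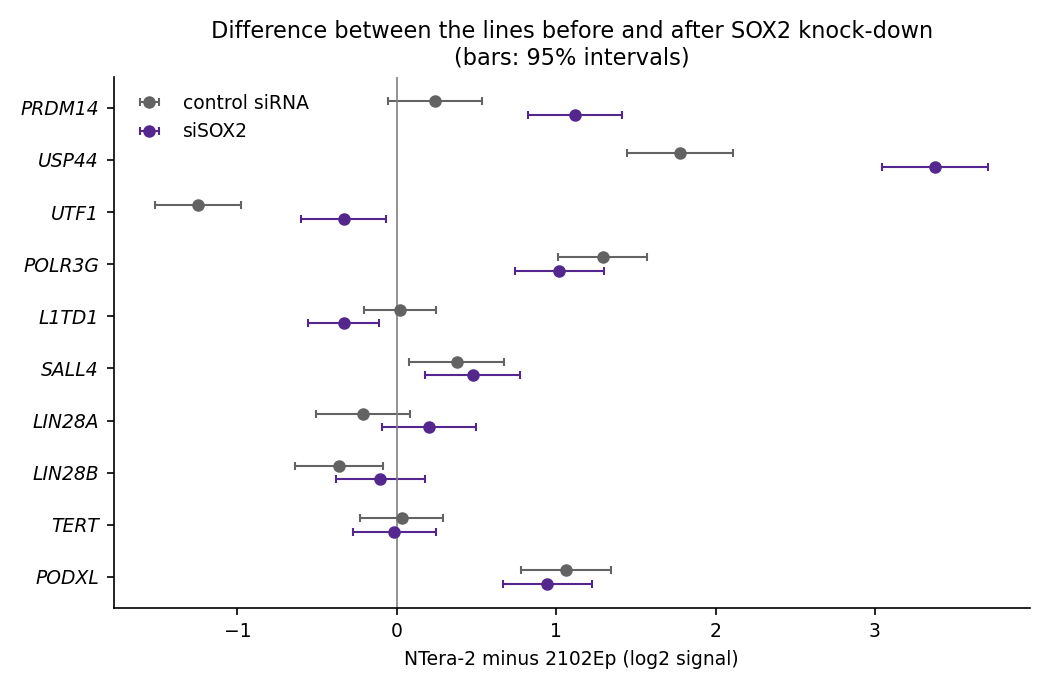
Log2 signal in NTera-2 minus that in 2102Ep (horizontal axis) for the 10 genes, in control siRNA (grey) and siSOX2 (purple), with 95% intervals as bars. USP44 moves from 1.78 to 3.38 and PRDM14 from 0.24 to 1.12, UTF1 moves from -1.25 to -0.33, and PODXL stands at 1.06 and 0.95.

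The other genes of each pathway were counted over fixed lists. The list of the undifferentiated state had 31 genes measured of 35. Without the targeted gene SOX2 it held 30, of which 18 fell and 2 rose in 2102Ep, with a median log2 change of -0.555, and 11 fell and 1 rose in NTera-2, with a median of -0.216. Those that fell in both lines included HESX1, a homeobox factor (-2.23 and -0.99), and KLF4, a reprogramming factor (-1.38 and -0.73). Those that rose were NODAL (0.81) and its inhibitor LEFTY2 (0.61) in 2102Ep and the transcription factor TFAP2C (0.43) in NTera-2. DPPA5, an RNA-binding protein, fell in 2102Ep (-2.82) and stood at 0.09 in NTera-2 (adjusted p = 0.887, limma). SFRP2 and DPPA3 fell in NTera-2 (-1.40 and -1.56) and did not pass in 2102Ep (-0.23 and -0.44). The difference between lines was not tested for these genes. POU5F1 (OCT4) and NANOG were not measured by a probe set of 1 gene.

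Among 18 genes of the PRDM family and Polycomb partners, 3 fell and 1 rose in 2102Ep (median 0.0247). JARID2, a cofactor of Polycomb repressive complex 2, fell by 0.85 (adjusted p = 7.49e-05, limma). CBFA2T2, a corepressor that binds PRDM14, stood at -0.62 ± 0.126 (adjusted p = 0.00236), and its relative RUNX1T1 at -0.71 (adjusted p = 0.00172). PRDM2 rose by 0.49. In NTera-2 none of the 18 passed (median 0.0902). The list around USP44 held 14 measured genes, other deubiquitinases as well as partners. USP3, one of those other deubiquitinases, acts on histones and rose by 2.56 ± 0.144 in 2102Ep (adjusted p = 1.22e-09, limma). That was opposite to USP44 in that line, and no other gene of the list passed (median 0.0989). In NTera-2 none passed (median 0.124).

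Among the SALL family and the NuRD complex, where SALL4 itself did not pass, 4 of 16 genes rose and 1 fell in 2102Ep (median 0.0458). The NuRD subunits MTA2 (0.74), CHD3 (0.48) and GATAD2B (0.44) rose, as did SALL1 (0.63), and SALL2 fell (-0.44). In NTera-2 MTA2 rose (0.39) and MTA3 fell (-0.50), with a median of 0.0904.

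The let-7 and LIN28 axis held 23 measured genes, namely processing enzymes and known let-7 targets. In 2102Ep the let-7 targets ARID3A (0.54) and CCND1 (0.51) rose and none fell (median 0.0791). In NTera-2 MYC fell (-0.61) and none rose (median 0.0602). The uridylyl transferases TUT4 and TUT7, which act with LIN28A on let-7 precursors, stood at 0.15 and 0.12 in 2102Ep and at 0.31 and 0.09 in NTera-2, and none of these passed.

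Of 14 telomerase and shelterin genes TERF1, a shelterin protein on double-stranded telomere repeats, fell in both lines (-1.02 ± 0.117, adjusted p = 7.66e-06, and -0.66 ± 0.117, adjusted p = 0.0018, limma), and no other passed (medians -0.0495 and 0.00542). TERF1 was also on the list of the undifferentiated state. Of 29 other RNA polymerase III genes none passed in either line (limma, medians 0.0106 and 0.0672), and their changes ran from -0.283 to 0.264 in 2102Ep and from -0.179 to 0.241 in NTera-2.

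Of 12 genes around PODXL, 4 rose and 1 fell in 2102Ep (median 0.136). The cytoskeletal linkers RDX (0.77) and MSN (0.32) and the sialyltransferases ST3GAL1 (0.71) and ST3GAL2 (0.47) rose. B3GALT5, a galactosyltransferase of stem cell surface glycans, fell in 2102Ep (-0.65 ± 0.16, adjusted p = 0.0105, limma) and in NTera-2 (-0.72 ± 0.16, adjusted p = 0.011, limma), where no other gene of the list passed (median -0.0237).

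**Figure D4:**
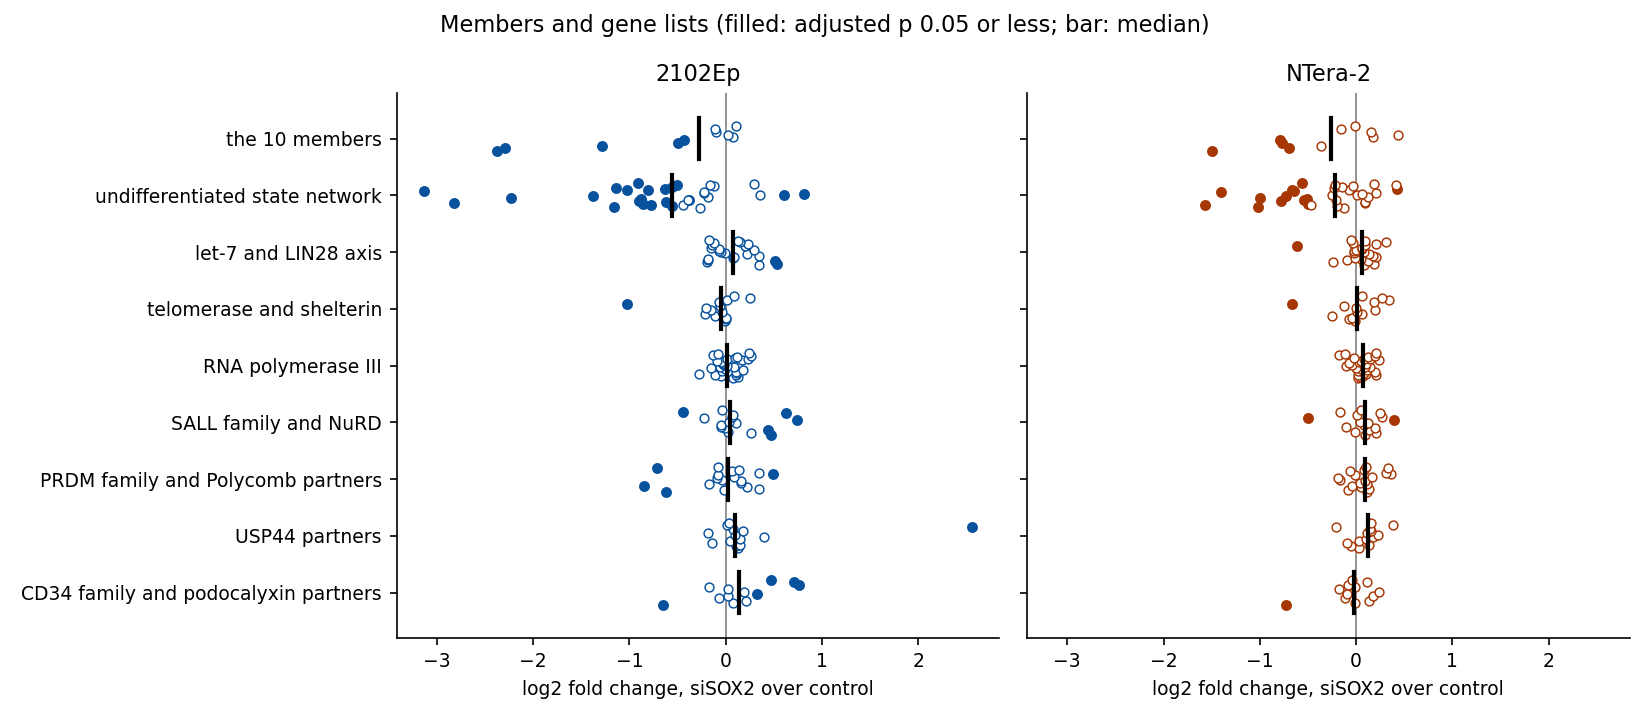
Log2 fold change after siSOX2 (horizontal axis) of the 10 genes and of each measured gene (points) of 8 pathway lists (rows) in 2102Ep (left) and NTera-2 (right). Filled points passed an adjusted p of 0.05 or less, and black bars are medians. The medians of the 10 genes (-0.274 and -0.261) and of the undifferentiated state list, here with SOX2 (-0.556 and -0.223), lie to the left, and USP3 stands alone at 2.56.

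The genes most like the called members over the 12 arrays were taken by profile. Likeness was the root mean square difference of the log2 profiles, each centred on its own mean, and is a description of arrays that share lines and treatments. Nearest to PRDM14 were CCDC172 (0.282 log2 units), HESX1 (0.382) and ZNF483 (0.394), with changes of -2.05 and -1.65, -2.23 and -0.99, and -1.67 and -1.05 in 2102Ep and NTera-2. Nearest to USP44 were PTPRZ1, a receptor phosphatase (0.397), FAM124A (0.556) and VLDLR, a lipoprotein receptor (0.581). They were less alike, with changes of -1.24, -1.54 and -0.96 in 2102Ep, where USP44 was -2.30, and of -0.44, -0.46 and -0.14 in NTera-2, where it was -0.69. Nearest to UTF1 were FRAT2, an inhibitor of GSK3 (0.146), GAD2, a glutamate decarboxylase (0.168), and VENTX, a homeobox factor (0.170). The 3 genes nearest to UTF1 had changes of -1.34, -1.46 and -1.32 in 2102Ep and of -0.30, -0.34 and -0.27 in NTera-2.

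Markers of other cell types moved in both lines, and by more genes in 2102Ep for yolk sac endoderm and trophoblast. The mean level of 10 measured embryonal carcinoma markers (of 12), which include SOX2 and 4 members (L1TD1, LIN28A, PODXL and SALL4), ran from 11.29 to 11.50 in 2102Ep control arrays and from 10.59 to 10.74 after siSOX2. Without SOX2 these ranges were 11.19 to 11.42 and 10.79 to 10.90, with 6 of 9 markers fallen. In NTera-2 without SOX2 they were 10.76 to 11.05 and 10.50 to 10.72, with 3 of 9 fallen and arrays that did not overlap.

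Of 8 yolk sac endoderm markers (of 10), 3 rose and 1 fell in 2102Ep, and their mean was 7.39 to 7.46 in control arrays and 7.74 to 8.03 after siSOX2. APOA2 rose by 2.56, GATA6 by 1.28 and GATA4 by 0.40, and APOB stood at -0.60. In NTera-2 the mean was 7.11 to 7.30 and 7.25 to 7.35, and GATA6 rose (0.49, adjusted p = 0.0294, limma). AFP, the defining yolk sac protein, had group means of 4.86 to 5.26 over the 4 groups.

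Of 7 trophoblast markers (of 9), 3 rose and 1 fell in 2102Ep, and their mean was 6.97 to 7.13 and 7.44 to 7.58. GATA3 rose by 2.15, CDX2 by 1.18 and KRT7 by 0.84, and ERVW-1 stood at -1.15. In NTera-2 the mean was 6.70 to 6.80 and 6.72 to 6.88, and GATA3 rose (0.80, adjusted p = 0.00148, limma). CGA, a chorionic gonadotropin subunit, had group means of 6.01 to 6.31.

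All 8 fibroblast markers were measured. In 2102Ep 2 rose (PDGFRA and PDGFRB) and THY1 fell, with means of 7.12 to 7.32 and 7.45 to 7.54. In NTera-2 3 rose (COL1A2, LUM and PDGFRB) and THY1 fell, with means of 7.12 to 7.23 and 7.28 to 7.46. LUM was dim there, with group means of 3.69 in control and 4.43 after siSOX2. Whether it stood above background is not known. Of 5 leukocyte markers none passed in either line (limma), and PTPRC, which defines these cells, had group means of 4.10 to 4.30. The part of these shifts in the falls of PRDM14, USP44, UTF1, POLR3G and L1TD1 was not tested. Of 8 reference genes none passed in either line (limma, medians 0.0581 and 0.0328).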

How the data were processed

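The members and gene lists were chosen with earlier results of these data known, so none is independent of them. The deposited log2 values per probe set were made by the authors with the robust multi-array average in the manufacturer's software, of unstated version. That method corrects background, equalises probe distributions between arrays and summarises probes by median polish, so a shift shared by most genes would be removed. The range of values, 1.57 to 14.98, gave the log base. Such values compress dim and very bright signals. Limma is named in the submitters' processing notes.

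The platform annotation paired 19158 of 32321 probe sets with 1 gene, 1388 with several and 11775 with none. Only the first kind was used. Of 18404 genes 18376 matched a current RefSeq symbol (GRCh38.p14) and 28 kept the array's symbol. For the 637 genes with several probe sets, LIN28A among them, the probe set with the highest mean was taken. A single model held all 12 arrays, a mean for each of 4 groups and 5 contrasts, with lmFit and eBayes in limma 3.58.1 (R 4.3.3, data.table version 1.17.8), which was also tested on simulated data. Plots were drawn with matplotlib 3.10.9 (Python 3.11.15). Fell and rose mean that p, adjusted over all genes by Benjamini-Hochberg, was at most 0.05. A call needs at least 2-fold as well. Groups came from the sample titles, and no sample was left out. Arrays count no molecules, and precision is limited by their number. Nothing states that replicates were separate cultures beyond the word biological, so p-values measure the spread between these samples. The genes named are the members, SOX2, up to 4 genes of each list that passed in either knock-down, by smallest adjusted p, and for each member called the 3 genes most like it. NODAL, LEFTY2, TFAP2C, SFRP2, DPPA3, GATAD2B, SALL2, MSN, POLR3GL, TUT4, TUT7 and some markers were added after their values had been seen.

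Alternative settings were a block for the replicate number, a fit of the compared groups alone, no genes below the median signal, median centring, quantile normalization again, a trended robust prior, no fold threshold, the mean of a gene's probe sets and each array left out. The dimmer LIN28A probe set and the lists without SOX2 were added after seeing the data.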

Additional observations from a re-analysis of the deposited data

Results flagged for a closer look

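The response to siSOX2 differed between 2102Ep and NTera-2, by the interaction term of limma over all genes, for 3 of the 10 genes and for SOX2. The difference (2102Ep minus NTera-2, log2) was -1.603 for USP44 (adjusted p = 0.000197, limma), -0.9129 for UTF1 (adjusted p = 0.00479, limma), -0.8811 for PRDM14 (adjusted p = 0.0118, limma) and -2.49 for SOX2 (adjusted p = 4.87e-08, limma). In all 4 the fall was larger in 2102Ep. The loss of SOX2 RNA, the line, the transfection reagent and the amount of siRNA moved together and cannot be told apart in these differences.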

How the results depend on the processing

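The counts of members called at 2-fold were 3 in 2102Ep, 1 in NTera-2, 1 for the difference in response, 4 between control lines and 3 between siSOX2 lines. With no fold threshold they were 5, 4, 3, 6 and 7, and SOX2 in NTera-2, at -0.6449, then passed. Leaving out single arrays gave 3 to 3, 1 to 1, 1 to 2, 3 to 4 and 2 to 4. The last count was 2 on median centring and with quantile normalization again, and no other setting that kept all arrays moved a count. With the replicate number as a block the counts were 3 and 1 in 2102Ep and NTera-2, and the block changed no member's pass other than that of UTF1 between siSOX2 lines (adjusted p = 0.0514, limma). Arrays of the same number correlated in their deviations at 0.065 to 0.179 in 2102Ep and -0.249 to 0.136 in NTera-2, not every array correlated best with its own number, and the numbers were not taken as pairs. Signs turned for values that had not passed the test. With quantile normalization again, PODXL in NTera-2 was 0.01554 and L1TD1 between control lines -0.03263. LIN28A in 2102Ep was -0.03048 by the mean of its probe sets and -0.08293 by the dimmer one, an alternative added after seeing the data. With single arrays left out, values in 2102Ep ran from -0.04 to 0.0784 for LIN28A, -0.2124 to 0.03427 for LIN28B, -0.01872 to 0.2455 for PODXL and -0.01422 to 0.2318 for SALL4. PODXL in NTera-2 ran from -0.04233 to 0.003117. The difference in response ran from -0.005183 to 0.259 for PODXL, -0.2429 to 0.06118 for SALL4 and -0.08373 to 0.1362 for TERT. Between control lines L1TD1 ran from -0.03928 to 0.07207 and TERT from -0.09876 to 0.1212, and between siSOX2 lines LIN28B from -0.1588 to 0.008657 and TERT from -0.07738 to 0.03174. The cause of these shifts was not tested. POLR3G between siSOX2 lines fell just short of 2-fold on centring (0.9909) and with quantile normalization again (0.9493).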

Other observations

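The nearest measured protein-coding genes on either side of each member, by the order of RefSeq genes in GRCh38.p14, were looked up after the values had been seen, and are given as a description. CLPTM1L was separated from TERT by another protein-coding gene, and the others adjoined their member in that order. Of 20 such neighbours 3 fell and 1 rose in 2102Ep, where 5.9% of all genes fell and 6.76% rose. In NTera-2 1 neighbour fell, against 1.98% of all genes. VENTX, a homeobox gene beside UTF1 and one of the 3 genes most like it in profile, fell by 1.32 on the log2 scale in 2102Ep (SE 0.103, adjusted p = 7.19e-08, limma) and stood at -0.27 in NTera-2 (adjusted p = 0.193). SLCO5A1, a transporter gene beside PRDM14, was -0.63 ± 0.129 in 2102Ep (adjusted p = 0.00251, limma) and -1.42 ± 0.129 in NTera-2 (adjusted p = 2.25e-06). By value that order between the lines is the opposite of the order of PRDM14, which was -2.38 and -1.50. NTN4, a netrin gene beside USP44, was -0.93 ± 0.108 in 2102Ep (adjusted p = 8.28e-06, limma) and -0.14 in NTera-2 (adjusted p = 0.646). ZFP64, a zinc finger gene beside SALL4, rose in 2102Ep by 0.41 (adjusted p = 0.0298, limma), and SALL4 stood at 0.07. The genes on the far side of PRDM14, USP44 and UTF1, which are NCOA2, METAP2 and KNDC1, stood at -0.10, -0.06 and -0.14 in 2102Ep and did not pass. The difference between lines was not tested for the neighbours here.

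Seminoma and germ cell markers, 8 genes, averaged 7.52 to 7.54 in 2102Ep control arrays and 7.39 to 7.54 after siSOX2, and 7.32 to 7.37 and 7.46 to 7.55 in NTera-2. TFAP2C, a germ cell transcription factor, fell in 2102Ep (-0.63, adjusted p = 0.00108, limma) and rose in NTera-2 (0.43, adjusted p = 0.0423, limma), a difference that was not tested here, and the receptor KIT rose in NTera-2 (0.58, adjusted p = 0.018). Neural markers, 6 genes, averaged 6.58 to 6.95 and 6.89 to 6.91 in 2102Ep, where MAP2 rose by 1.20 (adjusted p = 3.79e-05, limma), and 7.13 to 7.31 and 7.32 to 7.51 in NTera-2, where none passed.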
